A study of Bos taurus with 27 samples.

Results

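The genes described here are structural proteins of the basement membrane and of the fibres beside it, together with the chains of an integrin receptor that binds them. Of 10 listed genes (FN1, HSPG2, LAMA5, LAMB1, LAMC1, NID1, AGRN, FBN1, ITGB1 and ITGA6), 9 could be tied to a single Ensembl identifier and were read from the 24616 genes of the count table. NID1 could not be tied to an identifier and was not analysed here. The genes are grouped by what their proteins do, but they were listed with earlier results of these data known. The identifiers of the 9 genes came from the study's list of genes expressed in all calves.

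The tissue was colon of male Holstein calves taken at an age of 51 h, and the RNA of 27 calves was sequenced with 1 library each. TRT0 calves had their first colostrum meal at birth (0 h), TRT6 calves when 6 h old and TRT12 calves when 12 h old, with 9 calves in each treatment. The dam of a calf was either a primiparous heifer (H, 4 calves per treatment) or a multiparous cow (C, 5 calves per treatment), and crossing both factors gave 6 groups (TRT0_H, TRT0_C, TRT6_H, TRT6_C, TRT12_H and TRT12_C). All calves received colostrum, so TRT0 was the earliest fed group and not an unfed control. The treatment of a calf was taken from its label and its dam parity from the study's list of animals.

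A basement membrane is a thin sheet of matrix on which epithelial cells rest and which also wraps smooth muscle cells, vessels and nerves. Laminins, made of an alpha, a beta and a gamma chain, form a network on the cell side, type IV collagen forms a further network, and nidogen and the heparan sulfate proteoglycans perlecan and agrin join and anchor them. Fibronectin and fibrillin build fibres in the connective tissue beside the membrane, and integrins in the cell membrane hold the cell to laminin or fibronectin. In the gut this matrix supports the crypt epithelium and the muscle layers.

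The level of a gene is given in CPM, its read count divided by the sum of all gene counts of that calf and multiplied by 1000000. CPM is not scaled to gene length, so levels are compared between calves and not between genes. The counts summed to between 1163791 and 4202593 per calf (median 2215402). All 9 genes were above 1 CPM in all 27 calves. This was fixed beforehand, since their identifiers came from the study's core genes, defined by at least 1 CPM in all calves. The lowest count of any of them in a calf was 91 (AGRN), where counting error alone gives an SD of 10.5% of the count, and FN1 had 2124 to 9235 counts. Counting error covers only the drawing of reads.

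The colon pieces held several tissue types. Markers of epithelium (8 of 11 listed could be measured), smooth muscle (8 of 8), fibroblasts (7 of 7) and endothelium (3 of 6) were present in every calf. Their summed levels ranged from 2433 to 4173 CPM for epithelium, from 5923 to 11699 CPM for smooth muscle, from 7898 to 19574 CPM for fibroblasts and from 240 to 445 CPM for endothelium. Only 2 of 6 markers could be measured for leukocytes, with summed levels of 71.7 to 291 CPM. Marker identifiers also came from the study's lists of expressed genes, so the presence of markers in every calf was not an independent finding. In whole tissue, fewer cells of a type and less RNA per cell cannot be told apart.

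The run names place the libraries in 3 sequencing lanes, with 11 calves in lane 1, 11 in lane 2 and 5 in lane 3. Lane 1 held no TRT0_C calf, and lane 3 held no TRT0_H, TRT6_H or TRT12_C calf. Values within lanes, or with lane as a covariate, are therefore given beside some of the results they touch.

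The 3 chains of a laminin trimer of the intestinal basement membrane were measured. LAMA5 (ENSBTAG00000003061) encodes the alpha 5 chain, LAMB1 (ENSBTAG00000011412) the beta 1 chain and LAMC1 (ENSBTAG00000011966) the gamma 1 chain. The alpha chain carries the region that integrins bind. LAMA5 was at 147 ± 44.9 CPM (SD, n = 27), from 74.6 in calf 4135 (TRT0_H) to 257 in calf 4158 (TRT12_C), a 3.45-fold range. LAMB1 was at 292 ± 41.2 CPM (n = 27) with a 1.79-fold range, and LAMC1 at 254 ± 42.6 CPM (n = 27) with a 1.71-fold range. The alpha chain therefore spread more widely between calves, with an SD of 30.6% of its mean, than the beta and gamma chains, with 14.1% and 16.8%. The spread of the 3 chains was not tested against each other.

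The mean level of LAMA5 was nearly the same in the treatments, at 147 ± 50.3 CPM in TRT0, 146 ± 35.9 CPM in TRT6 and 147 ± 52.3 CPM in TRT12 (n = 9 each). LAMB1 was at 313 ± 28.0 CPM in TRT0, 276 ± 50.2 CPM in TRT6 and 286 ± 36.9 CPM in TRT12. LAMC1 was at 267 ± 41.3 CPM in TRT0, 245 ± 37.8 CPM in TRT6 and 251 ± 49.8 CPM in TRT12. The order TRT0, TRT12, TRT6 was the same for LAMB1 and LAMC1, but in each case neighbouring means differed by less than 1 SD of the calves.

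Perlecan and agrin are the large heparan sulfate proteoglycans of the membrane. HSPG2 (ENSBTAG00000017122), which encodes perlecan, was at 1073 ± 331 CPM (n = 27), from 601 in calf 4135 to 1626 in calf 4143 (TRT0_C). By treatment it was at 1110 ± 375 CPM in TRT0, 1055 ± 303 CPM in TRT6 and 1054 ± 349 CPM in TRT12. AGRN (ENSBTAG00000013191), which encodes agrin, was at 132 ± 31.2 CPM (n = 27), from 69.2 in calf 4117 (TRT12_H) to 182 in calf 4143. Its treatment means were 134 ± 40, 132 ± 25.3 and 129 ± 30.2 CPM in TRT0, TRT6 and TRT12. Both genes ranged more than 2-fold between calves of one group, HSPG2 from 614 to 1626 CPM and AGRN from 77.2 to 182 CPM in TRT0_C, while their treatment means lay close together.

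Fibronectin and fibrillin 1 are fibre proteins of the connective tissue. FN1 (ENSBTAG00000008300) was at 2271 ± 512 CPM (n = 27), from 1488 in calf 4168 (TRT12_H) to 3794 in calf 4124 (TRT0_H). Its treatment means were 2452 ± 561, 2162 ± 424 and 2198 ± 549 CPM in TRT0, TRT6 and TRT12. FBN1 (ENSBTAG00000002278) was at 504 ± 114 CPM (n = 27), from 310 in calf 4168 to 750 in calf 4124, so the same calves held the lowest and the highest level of both genes. Its treatment means were 566 ± 107, 460 ± 111 and 488 ± 109 CPM.

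The integrin chains had the lowest SD of CPM relative to the mean. ITGB1 (ENSBTAG00000015910), the beta 1 chain shared by many matrix receptors, was at 435 ± 34.0 CPM (n = 27), an SD of 7.83% of the mean, and 26 of 27 calves lay between 362 and 478 CPM. Calf 4144 (TRT6_C) was lower, at 328 CPM. This narrow spread belongs to CPM. After scaling by trimmed mean of M values (TMM), as used for the contrasts, ITGB1 ran from 286 in calf 4144 to 529 in calf 4140 (TRT6_C). ITGA6 (ENSBTAG00000017266), the alpha 6 chain that pairs with beta 1 or beta 4 to bind laminin, was at 105 ± 13.1 CPM (n = 27), with a 1.86-fold range from 74.9 in calf 4114 (TRT6_H) to 140 in calf 4144. The treatment means were 436 ± 33.3, 426 ± 44.3 and 442 ± 23.3 CPM for ITGB1 and 109 ± 8.99, 103 ± 19.2 and 103 ± 9.04 CPM for ITGA6 in TRT0, TRT6 and TRT12.

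**Figure D1:**
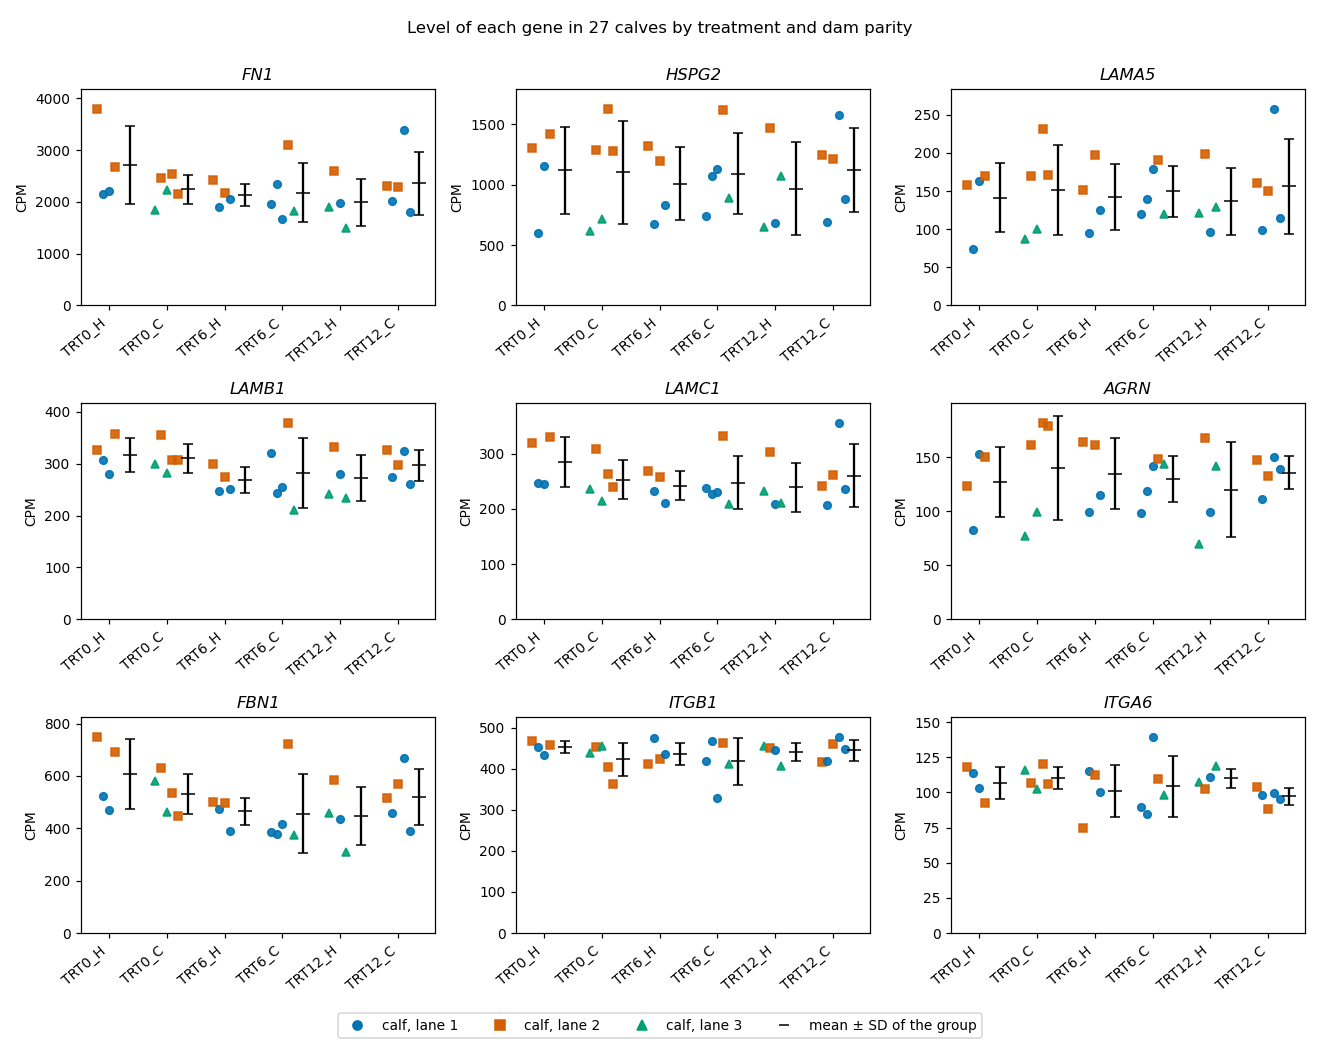
CPM (vertical axis, linear and starting at 0) of each of 9 genes in 27 calves, by group of treatment and dam parity. Each symbol is a calf, its shape and colour give the sequencing lane, and the bar beside each group is its mean ± SD. The groups overlap for every gene, and the lane 2 calves (squares) lie high for HSPG2, LAMA5 and AGRN.

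Whether the time of the first colostrum changed these genes was asked with 13 contrasts, 4 over all calves and 9 within a parity or treatment, fitted over 13943 genes with edgeR's quasi-likelihood test. A gene was called at a Benjamini-Hochberg adjusted p of 0.10 or less and a fold change of 1.2 or more. None of the 9 genes was called over all calves, either in the 3 contrasts of treatment or in C vs. H, where 0.0% of all genes tested were called in each contrast. At an unadjusted p under 0.05, 1 of the 9 passed in TRT6 vs. TRT0 (FBN1, with a lower level), where 3.14% of all genes passed and 1.66% did so with a lower level. In TRT12 vs. TRT0 the count was 0 of 9 (9.37% of all genes), in TRT12 vs. TRT6 0 of 9 (3.14%) and in C vs. H 0 of 9 (2.52%). DESeq2 also called none of the 9 genes.

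In TRT12 vs. TRT0, 7 of the 9 genes were lower and 2 higher, with a median log2 fold change of -0.05 (-0.004 over all genes tested). The 95% intervals of the 9 genes lay between -0.46 and 0.36 on the log2 scale, which is 0.725-fold to 1.28-fold. All 8 epithelial markers were higher in this contrast (median 0.22), 3 of them at an unadjusted p under 0.05 (9.37% of all genes). All 7 fibroblast markers (median -0.16), 6 of 8 smooth muscle markers and 2 of 3 endothelial markers were lower, with 0 at that p. The part of these cell types was not tested. In TRT6 vs. TRT0, 7 were lower and 2 higher with a median of -0.06, and the intervals lay between 0.687-fold and 1.29-fold. In C vs. H, 4 were higher and 5 lower with a median of -0.04, and the intervals lay between 0.825-fold and 1.28-fold. These unadjusted intervals give the range of changes that the data allow for each gene. They are not a limit of detection, and they do not show that the levels were equal. TRT6 vs. TRT0 and TRT12 vs. TRT0 share the TRT0 calves.

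FBN1 was the gene with an unadjusted p under 0.05 in TRT6 vs. TRT0. Its level ran from 447 to 750 CPM (median 534) in TRT0 and from 375 to 723 CPM (median 415) in TRT6, and the treatments overlapped. The log2 fold change was -0.28 (SE 0.13, 95% interval -0.54 to -0.01), with an unadjusted p of 0.0432 and an adjusted p of 1.0. Within lane 1 the mean was 496 CPM in TRT0 (n = 2) and 409 CPM in TRT6 (n = 5), within lane 2 it was 611 CPM (n = 5) and 573 CPM (n = 3), and within lane 3 it was 522 CPM (n = 2) against 375 CPM in 1 calf. In TRT12 vs. TRT0 its log2 fold change was -0.20 (unadjusted p 0.140). All 7 fibroblast markers were also lower in TRT6 vs. TRT0, with a median log2 fold change of -0.28 and 2 at an unadjusted p under 0.05, and their part in the FBN1 value was not tested. FBN1 no longer passed when any 1 of 11 calves was left out (4108, 4124, 4127, 4135 and 4164 of TRT0 and 4125, 4134, 4140, 4144, 4146 and 4154 of TRT6).

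Within the H calves the lower values of TRT12 were larger. In TRT12_H vs. TRT0_H, 8 of the 9 genes were lower, with a median log2 fold change of -0.25 (0.003 over all genes tested), and none was called, as were 0.0% of all genes. FBN1, FN1 and LAMC1 had an unadjusted p under 0.05, 3 of 9, where 3.56% of all genes did and 1.81% did so with a lower level.

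For FBN1 the TRT0_H calves were at 468, 524, 691 and 750 CPM and the TRT12_H calves at 310, 436, 457 and 583 CPM. The log2 fold change was -0.49 (SE 0.19, unadjusted p 0.0146, adjusted p 1.0). For FN1 the TRT0_H calves were at 2155, 2217, 2675 and 3794 CPM and the TRT12_H calves at 1488, 1899, 1986 and 2589 CPM. Here 3 of the 4 TRT12_H calves lay below all TRT0_H calves, and the fourth, calf 4128, lay above 2 of them. The log2 fold change was -0.48 (SE 0.20, unadjusted p 0.0214, adjusted p 1.0).

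For LAMC1 the TRT0_H calves were at 245, 247, 319 and 330 CPM and the TRT12_H calves at 209, 211, 232 and 304 CPM. The pattern was that of FN1, with calf 4128 apart from the other TRT12_H calves, and the log2 fold change was -0.30 (SE 0.15, unadjusted p 0.0480, adjusted p 1.0). LAMB1 was at 279, 307, 327 and 357 CPM in TRT0_H and at 234, 241, 280 and 332 CPM in TRT12_H, with a log2 fold change of -0.26 (unadjusted p 0.0872). HSPG2 had a log2 fold change of -0.25 with an SE of 0.28 (unadjusted p 0.377). ITGA6 was the 1 gene of the 9 that was not lower, with a log2 fold change of 0.01.

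The lanes bear on this contrast, since 2 of the 4 TRT12_H calves and no TRT0_H calf were in lane 3. Within lane 1, FBN1 was at 468 and 524 CPM in the TRT0_H calves and 436 CPM in the TRT12_H calf, and within lane 2 it was at 691 and 750 CPM against 583 CPM. FN1 was at 2155 and 2217 CPM against 1986 CPM in lane 1, and at 2675 and 3794 CPM against 2589 CPM in lane 2. LAMC1 was at 245 and 247 CPM against 209 CPM in lane 1, and at 319 and 330 CPM against 304 CPM in lane 2. Thus within both lanes the CPM of the single TRT12_H calf was below that of both TRT0_H calves for these 3 genes, which were picked for their lower level in this contrast, with too few calves for a test. After TMM scaling FBN1 in lane 1 was at 475 in both calf 4139 (TRT12_H) and calf 4138 (TRT0_H). With lane as a covariate, the log2 fold change was -0.43 for FBN1, -0.39 for FN1, -0.24 for LAMC1 and -0.05 for HSPG2, only FBN1 kept an unadjusted p under 0.05, and the median of the 9 genes was -0.13.

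The count rested on single calves. It was 0 without calf 4168 (TRT12_H, the lowest FN1 and FBN1 levels) or without calf 4124 (TRT0_H, the highest), and 1 without calf 4164 or calf 4117. The median log2 fold change of the 9 genes lay between -0.33 (without calf 4128) and -0.09 (without calf 4117 or calf 4164), and that of HSPG2 between -0.47 and -0.09, without calf 4128 and calf 4117. All 7 fibroblast markers were lower in the same contrast, 5 of them at an unadjusted p under 0.05, with a median log2 fold change of -0.45 and summed levels of 10832 to 19574 CPM in TRT0_H and 7898 to 13763 CPM in TRT12_H. All 8 smooth muscle markers (median -0.17) and all 3 endothelial markers (median -0.32) were lower as well, with 1 of each list at an unadjusted p under 0.05, whereas 6 of 8 epithelial markers were higher (median 0.08). The part of these cell types in the result was not tested.

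The same delay was then read in the C calves. In TRT12_C vs. TRT0_C, 8 of the 9 genes were higher, with a median log2 fold change of 0.11, none was called (0.0% of all genes) and none had an unadjusted p under 0.05 (9.87% of all genes). FBN1 had a log2 fold change of 0.03 (SE 0.17) and FN1 of 0.13 (SE 0.18). All 8 epithelial markers were higher in this contrast (median 0.36), 3 of them at an unadjusted p under 0.05. So were 5 of 7 fibroblast, 5 of 8 smooth muscle and all 3 endothelial markers, with 0 at that p. Their part was not tested. Whether the treatments differed between H and C calves was tested by the interaction of treatment and parity, in which none of the 9 genes was called (0.00717% of all genes) and none had an unadjusted p under 0.05 (2.66% of all genes). The lowest unadjusted p was 0.0867, for FN1, with an adjusted p of 0.999, so a difference between H and C calves was not shown.

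The 6 h delay was compared in the same way, and none of the 9 genes was called. In TRT6_H vs. TRT0_H, 7 of the 9 genes were lower (median -0.13), with 0 at an unadjusted p under 0.05 (3.34% of all genes) and the lowest value for FBN1, at -0.37 (unadjusted p 0.0620). In TRT6_C vs. TRT0_C, 5 were higher and 4 lower (median 0.01), again with 0 at that p (1.95% of all genes). Without calf 4151 (TRT6_C) the count was 1 in TRT6_C vs. TRT0_C and in TRT12_C vs. TRT6_C, and without calf 4114, 4138 or 4151 it was 1 in TRT6_H vs. TRT0_H. In TRT12_H vs. TRT6_H, 8 of the 9 were lower (median -0.12, 0 at that p, 1.8% of all genes), among them AGRN at -0.22 (unadjusted p 0.332, -0.04 without calf 4117 and -0.08 with lane as a covariate), and in TRT12_C vs. TRT6_C, 8 were higher (median 0.10, 0 at that p, 6.71% of all genes). TRT6_C vs. TRT0_C shares its TRT0_C calves with TRT12_C vs. TRT0_C, as the H contrasts share their TRT0_H calves.

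Dam parity was compared within each treatment. In TRT0_C vs. TRT0_H, 8 of the 9 genes were lower in the calves of multiparous cows (median -0.14, and -0.16 with lane as a covariate). At an unadjusted p under 0.05 the count was 0 (2.52% of all genes). The lowest unadjusted p were those of LAMC1 (log2 fold change -0.27, unadjusted p 0.0603) and FN1 (-0.35, unadjusted p 0.0688). For ITGB1 this was its own contrast of lowest unadjusted p, with a log2 fold change of -0.18 (unadjusted p 0.220). It was at 362, 405, 439, 453 and 455 CPM in TRT0_C and at 433, 454, 457 and 468 CPM in TRT0_H. All 7 fibroblast markers (median -0.28), all 8 smooth muscle markers (median -0.27) and all 3 endothelial markers (median -0.30) were lower in the same contrast. Of these, 0, 1 and 1 had an unadjusted p under 0.05. Of the epithelial markers, 6 of 8 were lower (median -0.11, 0 at that p). The part of these cell types was not tested. The count of the 9 genes was 3 without calf 4138, 2 without calf 4135 and 1 without calf 4127 or calf 4133. In TRT6_C vs. TRT6_H, 3 were higher and 6 lower (median -0.03), with 0 at that p (3.86% of all genes). In TRT12_C vs. TRT12_H, 8 of the 9 were higher in C (median 0.19, and 0.11 with lane as a covariate), with 0 at that p (2.68% of all genes). Among them was LAMA5, at 0.20 (unadjusted p 0.415). This LAMA5 value was 0.01 without calf 4158, 0.39 without calf 4128 and 0.07 with lane as a covariate. All 7 fibroblast markers (median 0.29), all 8 epithelial markers (median 0.13) and all 3 endothelial markers (median 0.16) were also higher. So were 6 of 8 smooth muscle markers (median 0.06). In these lists 0 markers passed at that p, and their part was not tested. The exception among the 9 genes was ITGA6, at 88.3, 95.3, 98.4, 99.5 and 104 CPM in TRT12_C and at 103, 107, 111 and 119 CPM in TRT12_H, with a log2 fold change of -0.16 (unadjusted p 0.196). The highest TRT12_C calf lay just above the lowest TRT12_H calf.

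**Figure D2:**
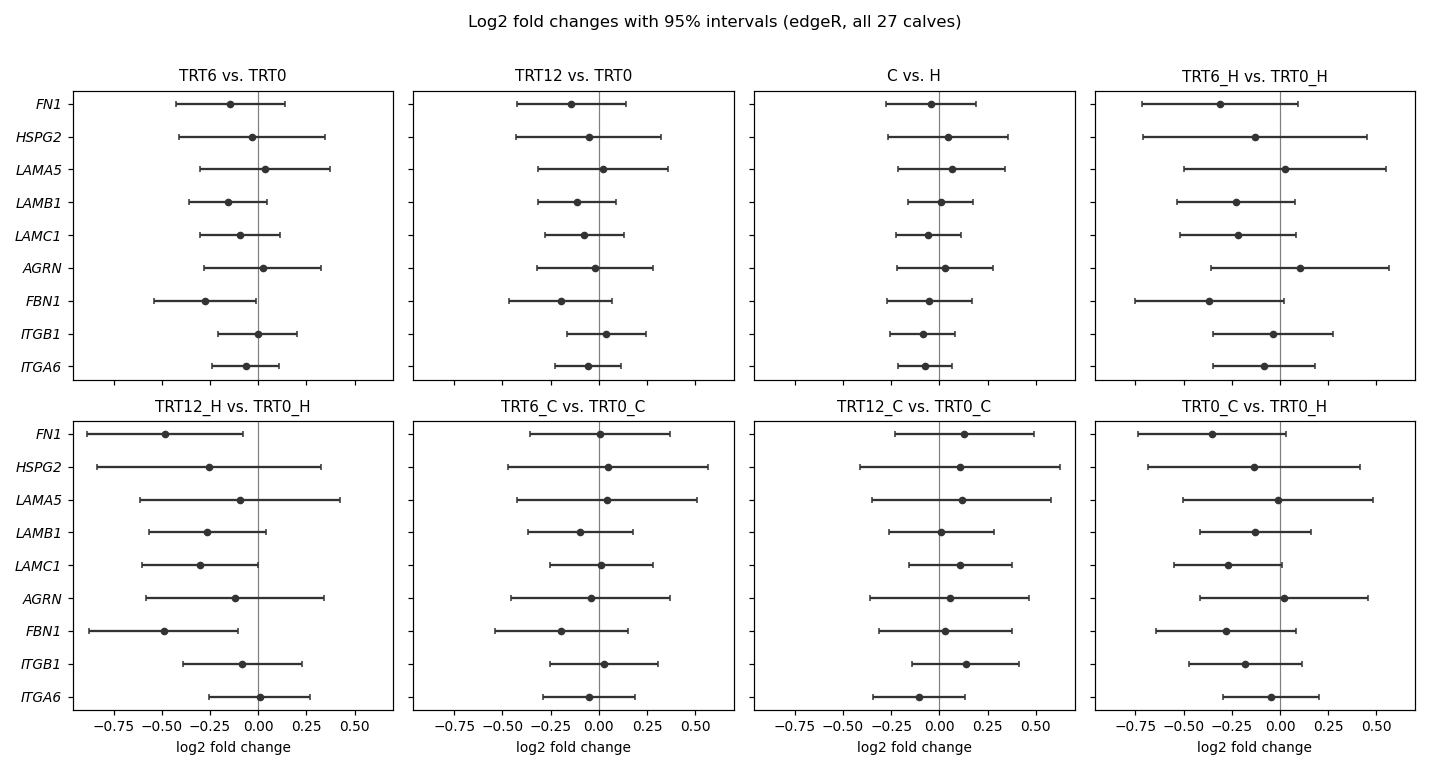
Log2 fold change (horizontal axis) of each gene in 8 of the 13 contrasts, with its 95% interval from edgeR. Points left of 0 are lower in the group named first. The intervals of FN1, LAMC1 and FBN1 in TRT12_H vs. TRT0_H and of FBN1 in TRT6 vs. TRT0 leave out 0 before adjustment, and all other intervals shown include it.

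Other basement membrane and adhesion genes were read from a wider list of 86 genes, of which 40 had an identifier and 39 could be tested. None was called in any of the 13 contrasts, and 0 to 3 of 39 had an unadjusted p under 0.05 in each. The count was 2 of 39 in TRT12 vs. TRT0 and in TRT12_C vs. TRT0_C, where 9.37% and 9.87% of all genes passed, and 3 of 39 in TRT0_C vs. TRT0_H, where 2.52% did. In TRT12_H vs. TRT0_H (3.56% of all genes) the 2 genes were SPARC, a collagen-binding matrix protein (log2 fold change -0.49, unadjusted p 0.0251), and LAMA4, a laminin alpha chain of vessels and muscle (-0.37, unadjusted p 0.0285). The median of the 39 genes in that contrast was -0.17. In TRT12 vs. TRT0 they were LAMA4 (-0.24, unadjusted p 0.0306) and PTK2, the focal adhesion kinase (-0.17, unadjusted p 0.0474). In TRT6_H vs. TRT0_H, LAMB2, a further laminin beta chain, had a value of -0.56 (unadjusted p 0.0363).

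THBS1, an adhesive matrix glycoprotein, had the opposite sign. Its log2 fold change was 0.33 in TRT6 vs. TRT0 (unadjusted p 0.0414), 0.46 in TRT6_C vs. TRT0_C (unadjusted p 0.0353) and 0.43 in TRT12_C vs. TRT0_C (unadjusted p 0.0475), contrasts that share TRT0 calves. DAG1, the dystroglycan that binds laminin and agrin, had a value of 0.33 in TRT12_C vs. TRT0_C (unadjusted p 0.0210). In TRT0_C vs. TRT0_H, SPARC (-0.41, unadjusted p 0.0446) and the integrin alpha chains ITGA1 (-0.31, unadjusted p 0.0312) and ITGA5 (-0.55, unadjusted p 0.0249) passed at that level. The adjusted p of each of these values was 0.461 or more.

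The libraries of the 3 lanes differed more than the treatments for some of these genes. HSPG2 ran from 1196 to 1626 CPM in the 11 lane 2 calves (median 1302), from 601 to 1578 CPM in the 11 lane 1 calves (median 835) and from 614 to 1075 CPM in the 5 lane 3 calves (median 712). In CPM every lane 2 calf was above every lane 3 calf. After TMM scaling the lowest lane 2 calf (4125) was at 1110 and the highest lane 3 calf (4168) at 1109. LAMA5 was also separated in CPM, from 150 to 231 CPM in lane 2 and from 86.5 to 130 CPM in lane 3. After TMM scaling its lowest lane 2 calf (4124) was at 151 and its highest lane 3 calf (4168) at 134. The share of all genes that separated in this way was not counted. AGRN had means of 119, 156 and 106 CPM in lanes 1, 2 and 3. FN1 had means of 2139, 2590 and 1857 CPM, and FBN1 of 454, 586 and 437 CPM. LAMB1 had means of 277, 324 and 254 CPM, and LAMC1 of 240, 284 and 221 CPM. The means of these genes were thus also highest in lane 2 and lowest in lane 3. ITGB1 had means of 437, 434 and 433 CPM, and ITGA6 of 105, 103 and 108 CPM.

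A lane term was then added to the additive fit of treatment and parity over all 13943 genes, a test chosen after the lane levels were seen. HSPG2 (adjusted p 0.0246) and LAMA5 (adjusted p 0.0784) were called for any difference between lanes, 2 of 9, where 2.41% of all genes were called. In lane 2 vs. lane 3, HSPG2, LAMA5 and AGRN were called, 3 of 9 and all higher in lane 2, where 5.54% of all genes were called. The log2 fold changes were 0.71 (SE 0.17, adjusted p 0.0256) for HSPG2, 0.60 (SE 0.16, adjusted p 0.0513) for LAMA5 and 0.47 (SE 0.15, adjusted p 0.0925) for AGRN. FN1 (0.38, adjusted p 0.159), FBN1 (0.34, adjusted p 0.176), LAMC1 (0.28, adjusted p 0.164) and LAMB1 (0.27, adjusted p 0.169) were also higher in lane 2 but not called. Lane 2 vs. lane 1 gave 0 of 9 (0.0% of all genes), with HSPG2 at 0.51 (SE 0.13, adjusted p 0.144). The count in lane 2 vs. lane 3 was 0 without calf 4108 and 1 without calf 4133, the 2 TRT0_C calves of lane 3, and with library totals in place of TMM it was 7. For any difference between lanes, HSPG2 was called whichever of the 27 calves was left out. LAMA5 lost the call without any 1 of 13 calves (4108, 4114, 4117, 4124, 4125, 4127, 4128, 4133, 4143, 4146, 4151, 4154 and 4164). Since the lanes did not hold the same groups, lane and group are only partly separated by this fit, and what else differed between the calves of the lanes was not tested.

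The share of a library taken by the 10 genes with the highest counts ranged from 30.6% to 43.1% and was 39.3% ± 4.24 in lane 1, 35.5% ± 2.31 in lane 2 and 38.9% ± 2.89 in lane 3 (SD). Over the 27 calves, after scaling by trimmed mean of M values (TMM), LAMA5 fell with this share (Pearson's r = -0.700, Spearman's rho = -0.656, permutation p adjusted over 9 genes 0.000135 and 0.00126), and r was -0.713 in lane 1 and -0.216 in lane 2. HSPG2 did so too (r = -0.570, rho = -0.539, adjusted permutation p 0.00699 and 0.0127), with -0.618 in lane 1 but 0.313 in lane 2. ITGB1 rose with it (r = 0.711, rho = 0.769, adjusted permutation p 0.000135 and 0.000270), with 0.670 and 0.734 within lanes 1 and 2. Without the 2 calves farthest from the median level of the gene, r was -0.670 for LAMA5, -0.652 for HSPG2 and 0.721 for ITGB1. With the lane means removed HSPG2 no longer passed (-0.379, adjusted permutation p 0.118) and LAMB1 did (0.594, adjusted permutation p 0.00303, against r = 0.249 over all calves). This was examined after the lane levels were seen. The TMM scaling itself moved ITGB1, from 328 to 286 in calf 4144 (TMM factor 1.15) and from 468 to 529 in calf 4140 (TMM factor 0.886). Relations with the share are not given for library totals, and the part of the scaling in these values was not tested.

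Which of these genes rose and fell together was asked over the 27 calves, with log2(TMM CPM + 1) and permutation tests of 100000 resamples. For 8 pairs of proteins that assemble or bind each other, 5 had an adjusted p under 0.05. LAMB1 and LAMC1, the beta and gamma chains, had r = 0.733 (rho = 0.722, adjusted permutation p 5.33e-05 and 0.000213), with r = 0.453 within lane 1 and 0.840 within lane 2. Without the 2 calves farthest from the median LAMB1 level, r was 0.666. For the alpha chain the values depended on the scaling. LAMA5 had r = 0.402 with LAMC1 (rho = 0.430, adjusted permutation p 0.0519 and 0.0420) and 0.0615 with LAMB1 (rho = 0.107, adjusted permutation p 0.869 and 0.595). Within lanes 1 and 2, r was 0.296 and -0.0101 for LAMA5 with LAMC1, and -0.403 and -0.217 for LAMA5 with LAMB1. Without the 2 calves farthest from the median LAMA5 level they were 0.507 and 0.218. With library totals in place of TMM, both relations passed, at 0.663 and 0.408, and the correlations of the chains were not tested against each other.

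HSPG2 and AGRN, the proteoglycans, had r = 0.834 (rho = 0.733, adjusted permutation p 4e-05 and 0.00012), which was 0.788 in lane 1, 0.249 in lane 2 and 0.785 without 2 calves. FN1 and FBN1 had r = 0.800 (rho = 0.769, adjusted permutation p 4e-05 and 0.00012), which was 0.695 in lane 1, 0.884 in lane 2 and 0.736 without 2 calves. HSPG2 and LAMC1 had r = 0.539 (rho = 0.577, adjusted permutation p 0.00748 and 0.00406), which was 0.372 in lane 1, 0.605 in lane 2 and 0.522 without 2 calves. With the lane means removed, this last value was 0.291 and no longer passed.

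FN1 and ITGB1 had r = 0.439 (adjusted permutation p 0.0373) but rho = 0.357 (adjusted permutation p 0.0922), and r was 0.277 without the 2 calves farthest from the median FN1 level. Within lanes 1 and 2 it was 0.618 and 0.664, and with the lane means removed it was 0.649 (adjusted permutation p 0.00066). Over all calves the relation thus rested on those calves, while it passed with the lane means removed. ITGB1 and ITGA6, which form one receptor, had r = 0.0184 (rho = 0.184, adjusted permutation p 0.928 and 0.406), with -0.134 and -0.202 within lanes 1 and 2 and 0.197 without 2 calves. No relation between the 2 integrin chains was therefore detected.

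All 36 pairs of the 9 genes were then computed, of which 25 had a positive and 11 a negative r, with a median of 0.274. After adjustment over the 36 pairs, 11 positive and 4 negative values had a permutation p under 0.05. The 4 negative values all belonged to ITGA6, with LAMA5, HSPG2, AGRN and LAMC1, and with library totals in place of TMM they were 0.00976, -0.0826, -0.102 and -0.0679. With the lane means removed they were -0.466, -0.399, -0.287 and -0.296, of which only that with LAMA5 passed (adjusted permutation p 0.0343). The highest was HSPG2 with LAMA5, r = 0.910 (rho = 0.883, adjusted permutation p 5.14e-05 and 9e-05), with 0.951 in lane 1, 0.490 in lane 2 and 0.912 without 2 calves. LAMA5 with AGRN had 0.712, so HSPG2, LAMA5 and AGRN rose and fell together, while FN1, FBN1, LAMC1 and LAMB1 were joined by values of 0.667 to 0.835. The lowest was LAMA5 with ITGA6, r = -0.610 (rho = -0.589, adjusted permutation p 0.00259 and 0.00426), with -0.704 in lane 1, 0.138 in lane 2 and -0.521 without 2 calves.

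**Figure D3:**
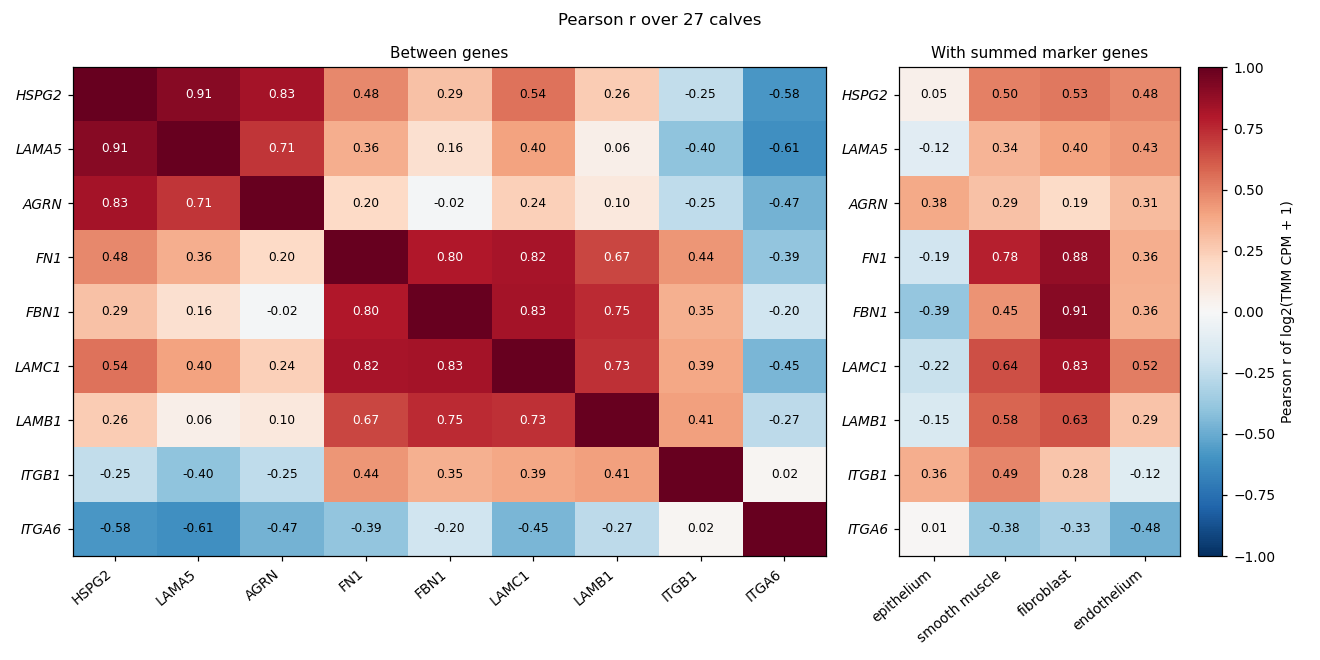
Pearson's r over 27 calves between each pair of genes (left) and between each gene and the summed level of 4 marker lists (right), on log2(TMM CPM + 1), with colour from -1 (blue) to 1 (red). HSPG2, LAMA5 and AGRN form a block at 0.71 to 0.91, FN1, FBN1, LAMC1 and LAMB1 a block at 0.67 to 0.83, and the second block has values of 0.63 to 0.91 with the fibroblast markers.

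The same genes were set beside the markers of 4 tissue types, 36 relations in all, of which 14 had an adjusted permutation p under 0.05. With fibroblast markers, FBN1 had r = 0.911 (rho = 0.885), FN1 0.879 (rho = 0.857), LAMC1 0.834 (rho = 0.769), LAMB1 0.627 (rho = 0.620) and HSPG2 0.531 (rho = 0.636). The adjusted permutation p was 9e-05 for FBN1, FN1 and LAMC1 by r and by rho, 0.0024 and 0.00334 for LAMB1, and 0.0213 and 0.0033 for HSPG2. Without 2 calves, r was 0.888 for FBN1, 0.839 for FN1, 0.784 for LAMC1, 0.538 for LAMB1 and 0.558 for HSPG2. Within lanes 1 and 2 it was 0.878 and 0.916 for FBN1, 0.799 and 0.943 for FN1, 0.767 and 0.839 for LAMC1, 0.165 and 0.743 for LAMB1, and 0.349 and 0.646 for HSPG2. With the lane means removed HSPG2 no longer passed (0.199, adjusted permutation p 0.523).

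With smooth muscle markers, FN1 had r = 0.781 (rho = 0.842, adjusted permutation p 9e-05 for both), with 0.849 and 0.746 within lanes 1 and 2 and 0.764 without 2 calves. LAMC1 had r = 0.644 (rho = 0.665, adjusted permutation p 0.00223 and 0.00259), with 0.633 and 0.695 within lanes and 0.601 without 2 calves. LAMB1, HSPG2, ITGB1 and FBN1 had values of 0.584, 0.502, 0.488 and 0.452, of which that of ITGB1 did not pass by rho (0.375, adjusted permutation p 0.112). With endothelial markers, LAMC1 had 0.515 (rho = 0.479), HSPG2 0.481 (rho = 0.531) and ITGA6 -0.479 (rho = -0.529). Within lanes 1 and 2 these values were 0.109 and 0.635 for LAMC1, 0.583 and 0.0759 for HSPG2, and -0.543 and -0.224 for ITGA6. None of the 3 passed with the lane means removed (0.347, 0.235 and -0.351), and with library totals ITGA6 was at 0.0661. No gene passed with the epithelial markers, where AGRN had 0.378 (rho = 0.308, adjusted permutation p 0.101 and 0.177). With the lane means removed AGRN had 0.599 (adjusted permutation p 0.00528), although within lanes 1 and 2 it was 0.390 and 0.261. The fibroblast list holds the collagen genes COL1A1, COL1A2, COL3A1 and COL6A3, which are themselves matrix genes. Their mean levels were 3325, 2432, 4616 and 1110 CPM, against 198, 190 and 216 CPM for DCN, LUM and PDGFRA. The summed fibroblast level therefore mostly followed the collagen genes, and so do the values of r with it.

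**Figure D4:**
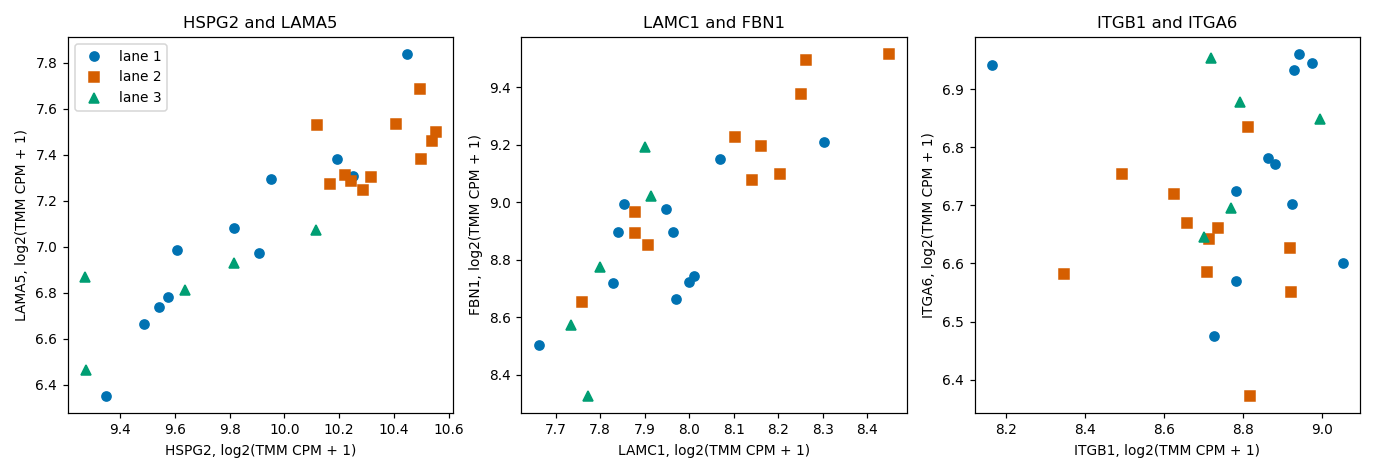
Levels in log2(TMM CPM + 1) of HSPG2 and LAMA5, of LAMC1 and FBN1, and of ITGB1 and ITGA6, with 1 symbol per calf by lane. The first pair rises together (r = 0.910) with the lane 2 calves at the upper end, the second rises together in all lanes (r = 0.835), and the third shows no trend (r = 0.0184).

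The genes whose levels followed each gene most closely were then read from 3713 tested genes with a name, as a description over 27 calves that share lanes and scaling. FN1 was followed by COL6A3 (r = 0.922), COL5A2 (0.893) and MAP1B (0.892), and FBN1 by the fibrillar collagen genes COL3A1 (0.946), COL1A2 (0.915) and COL5A2 (0.874). HSPG2 was followed by COL4A2, a type IV collagen chain of the basement membrane (0.946), PKD1 (0.919) and COL18A1, a further basement membrane collagen (0.918). LAMA5 was followed by PKD1 (0.928), TNKS1BP1 (0.910) and HSPG2 (0.910).

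LAMC1 was followed by MCAM, an adhesion molecule of vessels and muscle (0.886), MAP1B (0.864) and COL6A3 (0.860), whereas LAMB1 was followed by COL15A1 (0.822), FERMT2, which activates integrins (0.806), and LAMA4 (0.769). AGRN differed from these, with ENTPD8 (0.901), LAD1, an anchoring filament protein of epithelia (0.900), and KIAA1522 (0.896). ITGB1 was followed by CAV1 (0.810), LAPTM4A (0.799) and EIF4G2 (0.792). ITGA6 had the lowest values, with STK38L (0.740), SP3 (0.663) and STAG2 (0.647), none of them a matrix gene.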

How the data were processed

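The deposited values are raw counts per Ensembl gene. Per the study's methods, the authors removed reads below the chastity filter, used TopHat2 2.1.1 for alignment to UMD 3.1 and SAMtools 1.4 for sorting, and counted with HTSeq-count, without reads assigned to more than 1 gene. Strand setting and annotation release are not given in the sources used here, so HSPG2, which overlaps LDLRAD2 in RefSeq, is uncertain to that extent.

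Genes at 1 CPM or more in at least 5 of 9 calves of each treatment (13943) were fitted with edgeR 4.0.16 (TMM, quasi-likelihood test, R 4.3.3), with 6 group means for contrasts within groups and the interaction, and with additive treatment and parity for the others. Relations used scipy 1.17.1, and alternatives included DESeq2 1.42.0. The edgeR steps were tested on simulated data.

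Named genes were the 9 members with their contrasts of unadjusted p under 0.05, or else of lowest p, genes of the wider list at that p, and the 3 named genes closest to each member. Names came from the study's gene lists, and 6 of the 40 wider genes from network modules built on these calves. Members and lists were chosen with earlier results of these data known. The lane test, all 36 pairs and the share of the 10 highest genes were added after seeing the data. Each library was from a separate calf. Values of the enteric glia and neuron markers are not reported here.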

Additional observations from a re-analysis of the deposited data

Results flagged for a closer look

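Single calves far from the rest of their group were looked for in 81 combinations of gene and group, with Dixon's test at the 95% level, which marks about 1 in 20 groups by chance, and 7 were found. The treatment groups hold the parity groups, so these 7 are not independent. Calf 4124 of TRT0 had the highest FN1 level, 3794 CPM, with the other 8 calves at 1840 to 2675 CPM. Calf 4151 of TRT6 had the highest LAMC1 level, 331 CPM, both among the 9 TRT6 calves (the others at 210 to 269 CPM) and among the 5 TRT6_C calves (the others at 210 to 238 CPM). The same calf had the highest FBN1 level, 723 CPM, among the TRT6 calves (the others at 375 to 501 CPM) and the TRT6_C calves (the others at 375 to 415 CPM). Calf 4135 of TRT0_H had the lowest LAMA5 level, 74.6 CPM, with the other 3 at 157 to 170 CPM. Calf 4144 of TRT6 had the lowest ITGB1 level, 328 CPM, with the others at 411 to 474 CPM.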

How the results depend on the processing

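No paired analysis was possible because the replicate numbers were given in accession order and pair no calves. No member was called in any contrast or in the interaction under any alternative or without any 1 calf, while DESeq2 called 51 genes of all in TRT12 vs. TRT0, 4 in TRT12_C vs. TRT0_C and 0 to 2 in the others. The count of members at an unadjusted p under 0.05 moved under 1 alternative, to 1 in TRT12_H vs. TRT0_H with lane as a covariate. Without 1 calf it was 0 to 3 in TRT12_H vs. TRT0_H and in TRT0_C vs. TRT0_H, and 0 to 1 in TRT6 vs. TRT0, TRT6_H vs. TRT0_H, TRT6_C vs. TRT0_C, TRT12_C vs. TRT6_C and the interaction (1 without calf 4128 or calf 4151). The 10 log2 fold changes of members recomputed under all alternatives kept their sign; the others named were not recomputed. Without 1 calf the median of the members turned sign in C vs. H (-0.08 to 0.01), TRT12 vs. TRT6 (-0.03 to 0.06), TRT6_C vs. TRT0_C (-0.09 to 0.03) and TRT6_C vs. TRT6_H (-0.12 to 0.05, and 0.02 with lane as a covariate). The lane count for any difference was 4 with library totals and 1 at an adjusted p of 0.05, and 1 to 3 without 1 calf; in lane 2 vs. lane 3 it was 7, 1 and 0 to 3.

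With library totals in place of TMM, LAMA5 gained with LAMC1 (0.663), LAMB1 (0.408), smooth muscle (0.498), fibroblast (0.566) and endothelial markers (0.701), AGRN with epithelial (0.461) and endothelial markers (0.506), FBN1 with epithelial (-0.478) and endothelial markers (0.510), and FN1 (0.480) and LAMB1 (0.470) with endothelial markers, while ITGB1 with smooth muscle fell to 0.399. The sign turned for ITGB1 with ITGA6 (-0.315), LAMA5 with epithelium (0.118), ITGB1 with epithelium (-0.201), ITGA6 with epithelium (-0.159) and ITGA6 with endothelium (0.0661). With lane means removed, values no longer passed for HSPG2 with LAMC1 (0.291), fibroblast (0.199) and endothelial markers (0.235), LAMC1 with endothelium (0.347), FBN1 with smooth muscle (0.384) and ITGA6 with endothelium (-0.351). AGRN with epithelium (0.599) and ITGB1 with fibroblasts (0.549) then passed, and the sign turned for LAMA5 with LAMB1 (-0.366), ITGB1 with ITGA6 (-0.120), AGRN with fibroblasts (-0.209) and ITGA6 with epithelium (-0.0848). The cause of these changes was not tested. Leaving the 10 highest genes out of the totals raised every mean CPM, FN1 from 2271 to 3638.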
